A study of Mus musculus with 9 samples.

Results

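The genes described here are the vascular endothelial growth factor (VEGF) family of ligands and receptors, the proteoglycan gene Esm1, and the related growth factor genes Ptn (pleiotrophin) and Mdk (midkine), measured in CXCL12-abundant reticular (CAR) cells of mouse bone marrow. They are 10 named genes, Vegfa, Vegfb, Vegfc, Pgf, Flt1, Kdr, Flt4, Esm1, Ptn and Mdk. Each was taken through the probe sets whose only symbol in the platform annotation is that gene, which gave 10 probe sets of 21789 with 1 symbol, or 10 genes of 19938. The tested mice had received G-CSF, granulocyte colony-stimulating factor, which drives the making and release of neutrophils, at 250 µg/kg per day for 5 days (5 arrays). The control mice had received phosphate-buffered saline (PBS) over the same 5 days (4 arrays). All mice of both groups carried the Cxcl12+/gfp genotype, in which 1 Cxcl12 allele drives a green fluorescent protein. Cells bright for that protein and negative for lineage markers had been sorted and their amplified RNA hybridised to Mouse Gene 1.0 ST arrays. The labels name no age, sex or strain background, and do not say whether animals were pooled. The source names of the samples mention pre-B colonies and, for 4 of the G-CSF arrays, an Hspa9+/- genotype. Both are at odds with the titles and treatments, so groups follow the titles. If that genotype held, it could hardly be told apart from G-CSF treatment in these arrays.

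CAR cells are perivascular stromal cells that wrap the sinusoids of the marrow and make Cxcl12. VEGF-A acts on endothelium through the receptor Kdr (VEGFR-2), while Flt1 (VEGFR-1) binds VEGF-A, VEGF-B and placental growth factor (Pgf). VEGF-C acts mainly through Flt4 (VEGFR-3), the receptor best known from lymphatic vessels and also present on marrow sinusoids. Esm1, or endocan, is a small secreted dermatan sulfate proteoglycan known from VEGF-stimulated endothelium. Pleiotrophin and midkine are the only members of their family of heparin-binding growth factors, and pleiotrophin from marrow vessels and stroma is known to support blood stem cells.

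Levels are log2 RMA intensities of a probe set. Changes are log2 differences, G-CSF minus PBS, with the standard error (SE) or 95% confidence interval of a limma fit over all 9 arrays. A gene rose or fell where the p adjusted by Benjamini-Hochberg over the 21789 probe sets was under 0.05. Probe sets differ in how strongly they bind, so levels of different genes are only roughly comparable. This limit also holds where a level is set beside the range below or intensities are summed over a list. As a picture of signal where no transcript is expected, 17 genes of tissues other than marrow lay between 2.88 and 5.68 in any array. Array medians lay between 5.12 and 5.22. The arrays also fell into 2 sets on the first principal component (34.9% of the variance), which the labels do not name. The sets come from the same values that were tested, so fits that use them are no independent check. Set 1 held G-CSF replicates 1 to 3 and PBS replicates 1 and 2, and set 2 held the other 4 arrays, of which PBS replicate 3 stood apart at 56.5 on that component, against 22.5 for the next array. Ribosomal protein transcripts averaged 10.13 to 10.42 in set 1 and 8.97 to 9.74 in set 2. Cxcl12, the gene of the reporter used in the sort, was at 11.99 ± 0.07 after G-CSF and 12.35 ± 0.11 in PBS. The stromal transcript Lepr was at 11.33 ± 0.26 and 11.55 ± 0.21 in the same order (SD, n = 5 and 4). Neutrophil transcripts were also present, with 16 markers at mean levels of 6.17 to 12.13 over all arrays. The highest, S100a8, was at 12.51 after G-CSF and 11.66 in PBS, and was named after its values were seen.

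Vegfc, Esm1 and Mdk fell in CAR cells of G-CSF treated mice, to about 0.52, 0.54 and 0.46 of the PBS level. Vegfa, Vegfb, Pgf, Flt1, Kdr, Flt4 and Ptn did not pass the test. Of the 10 genes, 3 fell, 0 rose and 7 did not pass in limma at an adjusted p under 0.05. Of all probe sets tested, 1.62% were called, with 0.877% falling and 0.743% rising. The median change of the 10 genes was -0.29, against 0.0061 over all probe sets, and 8 of the 10 changes were negative, against 48.7% of all. The negative signs of Flt1, Kdr and Vegfb among them were small changes that turned in other fits. For 3 genes, the same that fell, all G-CSF arrays lay on one side of all PBS arrays, which held for 4.65% of all probe sets. The count of 3 rested on modest margins, since it was 1 to 3 with 1 array left out (1 without PBS replicate 3, PBS replicate 4, G-CSF replicate 2 or G-CSF replicate 3), and 1 (Mdk) when probe sets with several symbols or none entered the fit. The titles call the arrays biological replicates without naming the animals behind them, so these p-values measure the spread between arrays. In these bulk samples, fewer cells of a type and less RNA per cell cannot be told apart.

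**Figure D1:**
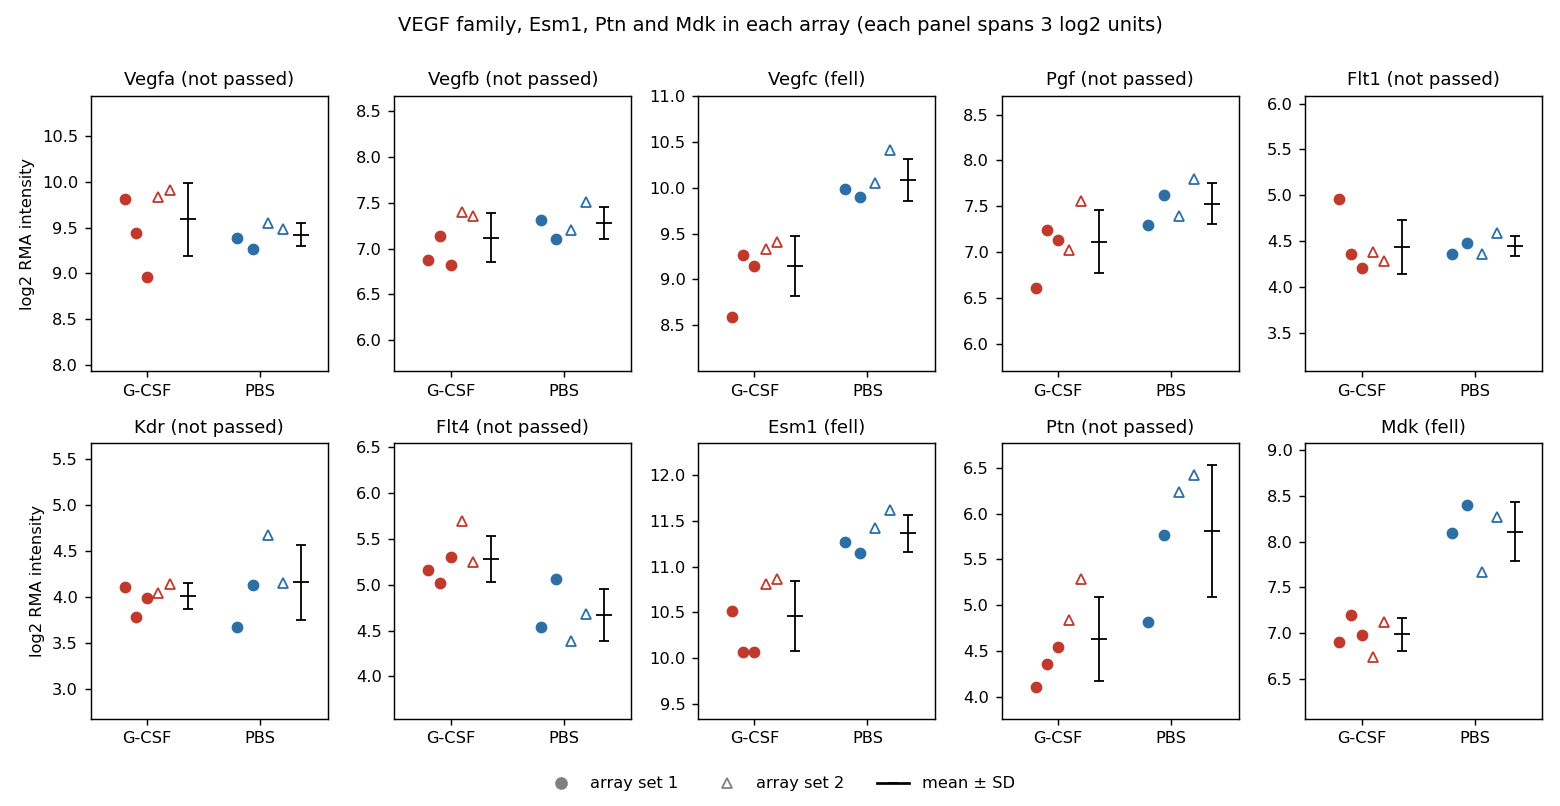
Log2 RMA intensity (y axis) of the 10 genes in each array, G-CSF left and PBS right; filled circles are array set 1, open triangles array set 2, and bars give the mean ± SD (n = 5 and 4). For Vegfc, Esm1 and Mdk every G-CSF array lies under every PBS array, while Vegfa, Vegfb, Pgf, Flt1, Kdr, Flt4 and Ptn overlap.

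**Figure D2:**
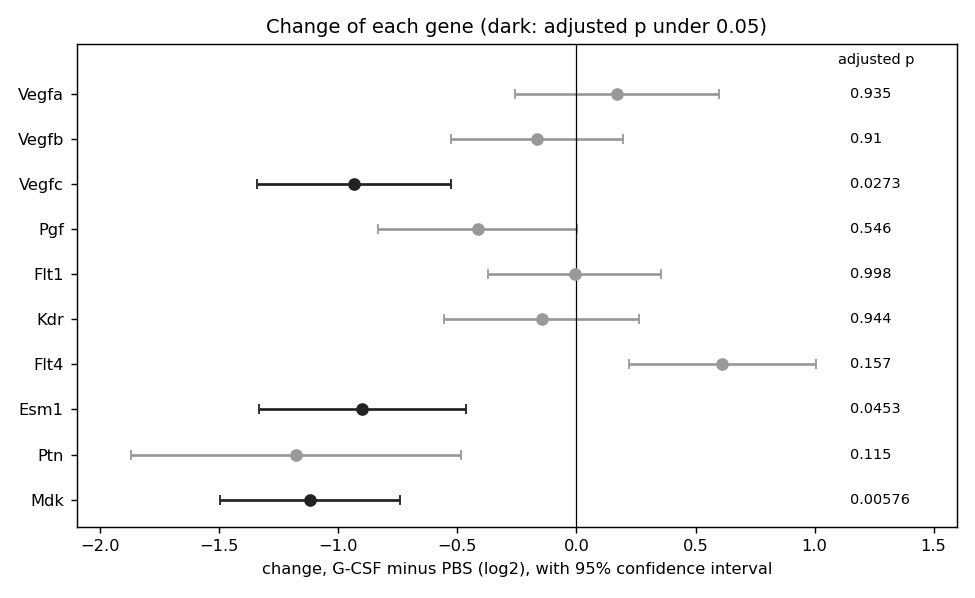
Log2 change of each gene, G-CSF minus PBS (x axis), with the 95% confidence interval of the limma fit and the adjusted p at the right; dark points have an adjusted p under 0.05. The intervals of Vegfc (-1.34 to -0.53), Esm1 (-1.33 to -0.47) and Mdk (-1.496 to -0.74) lie under 0, and that of Vegfa (-0.26 to 0.60) spans it.

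The proximal promoters of 9 of the 10 genes were found in RefSeq (GRCm38.p6), in 11 windows of the 250 bases before a transcription start. The windows of Vegfc and Esm1 are shown because these genes fell and differ in base composition, and that of Vegfa as a VEGF ligand that did not pass. Altogether 5 motifs were searched on both strands, and every match is in capitals: the TATA box TATAAA, the GC box GGGCGG, the STAT palindrome TTCNNNGAA, the core of the site of early B cell factors CCCNNGGG, and the core of the hypoxia response element ACGTG.
Vegfc, chr8:54077282-54077531, plus strand: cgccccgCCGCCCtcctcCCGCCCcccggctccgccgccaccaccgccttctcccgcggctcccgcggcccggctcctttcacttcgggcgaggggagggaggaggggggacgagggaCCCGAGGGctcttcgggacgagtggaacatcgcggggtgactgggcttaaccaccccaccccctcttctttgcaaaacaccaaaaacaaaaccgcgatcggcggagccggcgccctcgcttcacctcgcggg
Esm1, chr13:113209409-113209658, plus strand: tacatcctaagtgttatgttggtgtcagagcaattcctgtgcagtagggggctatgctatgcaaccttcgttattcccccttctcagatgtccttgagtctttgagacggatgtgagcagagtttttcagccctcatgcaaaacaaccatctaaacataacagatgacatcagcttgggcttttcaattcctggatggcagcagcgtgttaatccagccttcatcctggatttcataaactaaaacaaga
Vegfa, chr17:46032378-46032627, minus strand: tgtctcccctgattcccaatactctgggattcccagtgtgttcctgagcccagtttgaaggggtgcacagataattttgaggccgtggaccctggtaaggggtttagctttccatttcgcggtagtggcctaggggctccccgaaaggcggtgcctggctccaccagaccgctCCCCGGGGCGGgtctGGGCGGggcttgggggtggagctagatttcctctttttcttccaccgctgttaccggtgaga
The Vegfc window was GC-rich (71.6%, 30 CpG dinucleotides) and the Esm1 window was not (44.0%, 3 CpG), against a median of 52.4% over 32841 windows of the same length. Vegfc held 2 GC boxes, starting 243 and 232 bases before the start, and 1 early B cell factor core 132 bases before it. Esm1 held none of the motifs, and Vegfa held 2 GC boxes, the first of which overlaps its 1 early B cell factor core. Of all windows, 32.7% held the GC box, 11.8% the early B cell factor core, 12.4% the TATA box, 16.6% the hypoxia core and 7.02% the STAT palindrome. None of the 11 windows held the STAT palindrome, and the hypoxia core was found only in the second, downstream window of Vegfa. A match or its absence in these windows is a description of letters only. Mdk is named without a window.

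Among the ligands, Vegfc, the growth factor of lymphatic and sinusoidal endothelium, was the 1 that fell. Its levels were 8.59, 9.27, 9.15, 9.33 and 9.41 in the G-CSF arrays, against 9.98, 9.89, 10.05 and 10.41 in the PBS arrays. The groups did not overlap, with 0.48 log2 units between the highest G-CSF array and the lowest PBS array. Vegfc averaged 9.15 ± 0.33 after G-CSF and 10.09 ± 0.23 in PBS (SD, n = 5 and 4), a change of -0.93 (SE 0.19), or 1.91-fold lower (limma adjusted p = 0.0273). It was -0.94 within array set 1 and -0.86 within set 2, neither past the threshold alone (adjusted p = 0.145 and 0.255). Leaving out PBS replicate 1, PBS replicate 3, PBS replicate 4, G-CSF replicate 2 or G-CSF replicate 3 ended the call (adjusted p = 0.0502 to 0.0877), as did a fit that took in all probe sets (0.0925). With the array set as a block the adjusted p was 0.00889, and with the replicate number as a block it was 0.0506.

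Vegfa, the main growth factor of blood vessels, did not pass. Its G-CSF arrays read 9.81, 9.44, 8.96, 9.84 and 9.91, and its PBS arrays 9.39, 9.26, 9.55 and 9.49. G-CSF replicate 3 was the lowest of all 9 arrays, while replicates 1, 4 and 5 lay above every PBS array. Vegfa averaged 9.59 ± 0.40 after G-CSF and 9.42 ± 0.12 in PBS (change 0.17, SE 0.20, adjusted p = 0.935), and the 95% interval allows a fall of up to 0.26 or a rise of up to 0.60.

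The other ligands overlapped between groups. Pgf, the ligand of Flt1, was at 6.61, 7.24, 7.14, 7.02 and 7.56 in the G-CSF arrays and at 7.30, 7.62, 7.40 and 7.80 in the PBS arrays. Only G-CSF replicate 5 reached into the PBS range. The change was -0.42 (SE 0.19, adjusted p = 0.546), with an interval from -0.83 to just above 0. Vegfb, another Flt1 ligand, ranged from 6.82 to 7.40 after G-CSF and from 7.10 to 7.51 in PBS (change -0.16, SE 0.17, adjusted p = 0.910). Its sign differed between array sets, at -0.26 in set 1 and 0.02 in set 2. Vegfd, the remaining VEGF ligand and no member of the group chosen here, was at 5.30 ± 0.26 after G-CSF and 5.80 ± 0.51 in PBS and did not pass (adjusted p = 0.555); it was named after its values were seen.

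The VEGF receptors gave low signal in the sorted cells of both groups. Flt1 read 4.96, 4.36, 4.21, 4.38 and 4.28 in G-CSF arrays, against 4.36, 4.48, 4.36 and 4.58 in PBS arrays. Kdr read 4.10, 3.78, 3.99, 4.04 and 4.14 in G-CSF arrays, against 3.67, 4.13, 4.67 and 4.15 in PBS arrays. G-CSF replicate 1 was the highest array for Flt1 and PBS replicate 3 for Kdr, and the groups overlapped for both. Both stayed inside the range of the transcripts of other tissues (2.88 to 5.68) in all 9 arrays. Their changes were -0.01 (Flt1, adjusted p = 0.998) and -0.15 (Kdr, adjusted p = 0.944). The sign of Kdr rested on PBS replicate 3, without which the change was 0.03, and that of Flt1 flipped in 6 of the 9 fits without 1 array.

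Flt4, the receptor of VEGF-C, was at 5.16, 5.02, 5.30, 5.69 and 5.24 in the G-CSF arrays and at 4.54, 5.06, 4.39 and 4.68 in the PBS arrays. Only G-CSF replicate 2 and PBS replicate 2 crossed, and the highest G-CSF array barely left the range of the transcripts of other tissues. The change of 0.61 (SE 0.18, interval 0.22 to 1.00) did not pass over all probe sets (adjusted p = 0.157). It was 0.36 within array set 1 and 0.93 within set 2. RMA values carry no detection call, so no receptor was called absent.

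Esm1 (endocan) fell 1.87-fold. Its levels were 10.51, 10.07, 10.07, 10.81 and 10.86 in the G-CSF arrays, against 11.26, 11.15, 11.42 and 11.62 in the PBS arrays. All G-CSF arrays lay under all PBS arrays, by 0.29 log2 units at the closest, and in both groups the highest arrays belonged to set 2. The mean was 10.46 ± 0.38 after G-CSF and 11.36 ± 0.20 in PBS (change -0.90, SE 0.20, adjusted p = 0.0453). The call was near the threshold: it was lost without any 1 array except G-CSF replicate 5, at adjusted p of 0.0505 to 0.140. With the array set as a block the adjusted p was 0.00648, at -0.99 within set 1 and -0.69 within set 2, neither past the threshold alone (adjusted p = 0.0791 and 0.334).

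Mdk (midkine) had the smallest p of the 10 genes. It read 6.90, 7.20, 6.98, 6.74 and 7.12 in the G-CSF arrays, against 8.10, 8.40, 7.66 and 8.26 in the PBS arrays. The lowest PBS array, replicate 3, was still 0.47 log2 units above the highest G-CSF array. Mdk averaged 6.99 ± 0.18 after G-CSF and 8.11 ± 0.32 in PBS, a change of -1.12 (SE 0.17), or 2.17-fold lower (adjusted p = 0.00576). The call held whichever array was left out, at adjusted p of up to 0.0231, and with all probe sets in the fit (0.0272). The change was -1.22 within array set 1 and -1.03 within set 2, the second not past the threshold (adjusted p = 0.273).

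Ptn (pleiotrophin) showed the most spread in PBS among the 10 genes. Its levels were 4.11, 4.36, 4.55, 4.84 and 5.29 in the G-CSF arrays, against 4.82, 5.76, 6.23 and 6.42 in the PBS arrays. PBS replicate 1 lay under G-CSF replicates 4 and 5, and the other PBS arrays lay above all G-CSF arrays. The change was -1.18 (SE 0.32, interval -1.87 to -0.49) and did not pass over all 9 arrays (adjusted p = 0.115). It passed without PBS replicate 1 (change -1.51, adjusted p = 0.0206) and with the array set as a block (change -1.09, adjusted p = 0.0116). Within both groups, set 1 arrays read lower than set 2 arrays. The mean of the transcripts of other tissues was also lower in set 1 within both groups (3.91 to 4.20, against 4.19 to 4.51 in set 2). Every G-CSF array of Ptn lay within the range of the transcripts of other tissues.

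**Figure D3:**
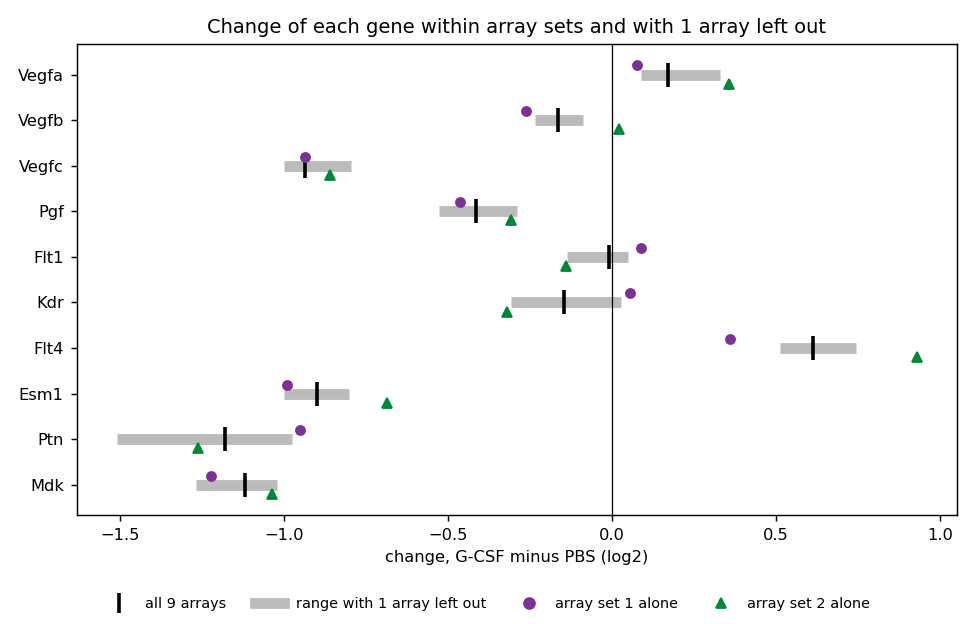
Log2 change of each gene, G-CSF minus PBS (x axis), over all 9 arrays (black mark), with 1 array left out in turn (grey range), and within array set 1 (circle) or set 2 (triangle) alone. Vegfc, Esm1, Ptn, Mdk and Pgf stay under 0 in all of these fits, while Vegfb, Flt1 and Kdr change sign.

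In 4 lists of other genes of these pathways, 5 of 94 genes were called (5.32%, against 1.62% of all probe sets), 4 of them up and 1 down. These lists were chosen with earlier results of these data known, so the share of calls in them is a description only. At an unadjusted p under 0.05, 4.41% of all probe sets rose and 4.81% fell. In the list of 17 co-receptors, binding partners and other secreted regulators of endothelium, 1 rose, 1 fell and 15 did not pass (1 rose and 4 fell at an unadjusted p under 0.05), with a median change of -0.06. The gene that fell was Angpt1, the activating ligand of the endothelial receptor Tie2, which is counted again among the CAR cell markers below. Angpt1 read 8.37, 8.02, 8.16, 8.20 and 8.37 in the G-CSF arrays, against 9.57, 9.39, 9.48 and 9.47 in the PBS arrays (change -1.25, SE 0.13, adjusted p = 4.38e-04). The gene that rose was Angpt2, which mostly opposes Angpt1 at Tie2. It read 8.60, 8.13, 8.51, 8.52 and 8.29 in the G-CSF arrays, against 8.003, 7.59, 7.48 and 7.58 in the PBS arrays (change 0.74, SE 0.16, adjusted p = 0.0379). Neither gene overlapped between groups, but 7 of the 9 single-array omissions ended the Angpt2 call, with the highest adjusted p (0.110) on omitting PBS replicate 4. The co-receptors Nrp1 (change -0.37, adjusted p = 0.352) and Nrp2 (change 0.14, adjusted p = 0.905), named after their values were seen, did not pass.

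Hypoxia is a known inducer of Vegfa, and 29 hypoxia factors and hypoxia-inducible genes were measured. The list gave 1 call up (Pfkfb3), 0 down and 28 not past the test, with a median change of 0.11. At an unadjusted p under 0.05 in limma, 7 rose and 1 fell, against 4.41% and 4.81% of all probe sets. Between groups 6 of the 29 did not overlap, against 4.65% of all probe sets. The summed intensity was 8097 to 9869 after G-CSF and 6755 to 7525 in PBS, without overlap, with Epas1 the highest of the list. Pfkfb3, which raises the flux through glycolysis, was at 7.75 ± 0.28 after G-CSF and 6.997 ± 0.17 in PBS (change 0.75, adjusted p = 0.0485). Omitting any single array other than G-CSF replicate 2 ended that call, with the highest adjusted p (0.138) on omitting PBS replicate 1. Adm, the vasodilator peptide adrenomedullin, was at 6.28 ± 0.54 and 4.94 ± 0.60 in the same order and did not pass (change 1.34, adjusted p = 0.0555). Every PBS array of Adm (4.22 to 5.48) lay within the range of the transcripts of other tissues. The oxygen-regulated factors Epas1 (0.47, adjusted p = 0.124) and Hif1a (0.28, adjusted p = 0.581), named after their values were seen, did not pass either.

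Signalling genes downstream of the VEGF receptors, with early endothelial targets, gave 0 calls among 29 measured (4 rose and 4 fell at an unadjusted p under 0.05 in limma), with a median change of 0.09. The 2 with the smallest p were Sphk1, a sphingosine kinase (0.55, adjusted p = 0.157), and Hspb1, a small heat shock protein (0.70, adjusted p = 0.171). Among 19 receptors and binding partners of pleiotrophin and midkine, 2 rose, 0 fell and 17 did not pass (3 rose and 2 fell at an unadjusted p under 0.05), with a median change of 0.10. Sdc3, the heparan sulfate proteoglycan syndecan-3 that binds pleiotrophin, read 7.67, 7.44, 7.82, 7.57 and 7.42 in the G-CSF arrays, against 6.66, 6.77, 6.38 and 6.88 in the PBS arrays. Its change was 0.91 (SE 0.15, adjusted p = 0.00896). Vcan (versican), a chondroitin sulfate proteoglycan, read 7.74, 7.53, 7.54, 7.98 and 8.04 in the G-CSF arrays, against 6.52, 6.03, 6.87 and 6.87 in the PBS arrays (change 1.19, SE 0.20, adjusted p = 0.00908). For both, all G-CSF arrays lay above all PBS arrays, and both calls held whichever array was left out.

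**Figure D4:**
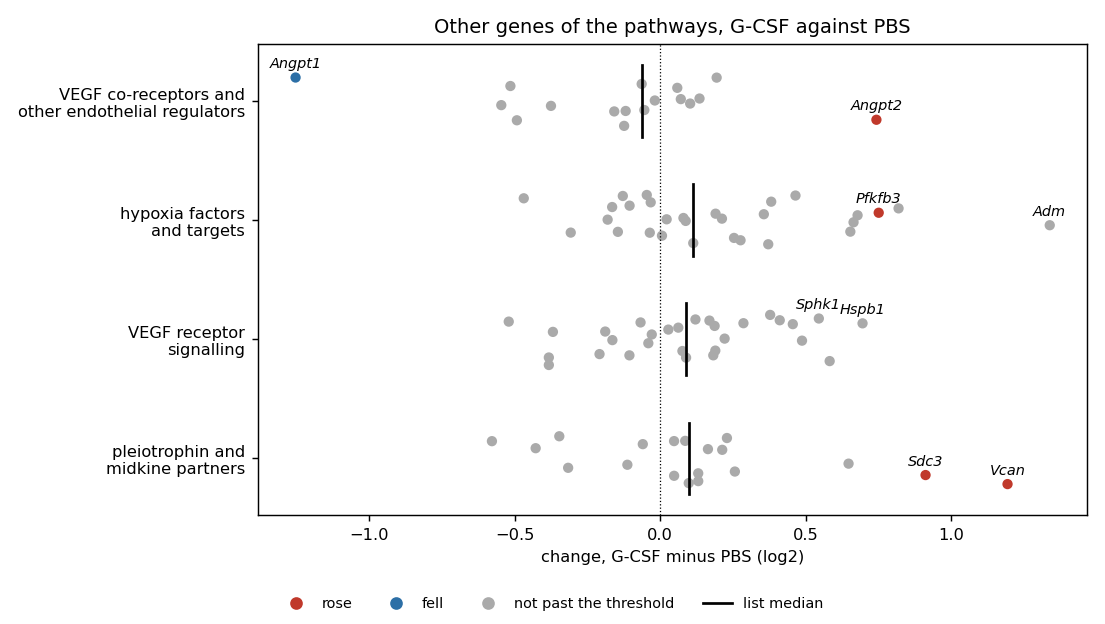
Log2 change, G-CSF minus PBS (x axis), of the genes in 4 pathway lists (rows), with the list median as a black line; red points rose, blue points fell and grey points did not pass. Labels mark the genes named by rule, among them Angpt1 (-1.25), Angpt2 (0.74), Pfkfb3 (0.75), Sdc3 (0.91) and Vcan (1.19).

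Markers of endothelium, the usual home of the VEGF receptors and a known source of Esm1 and Vegfc, gave no call downward. The 20 measured gave 1 call up, 0 down and 19 not past the test (2 rose and 2 fell at an unadjusted p under 0.05), and their summed intensity was 899.9 to 965.0 after G-CSF and 848.4 to 1149 in PBS. The shares over all probe sets were 0.743% rising and 0.877% falling, or 4.41% and 4.81% at an unadjusted p under 0.05. Tek and Tie1 also belong to the list of endothelial regulators, and Vwf to the platelet list. Of the 20, 15 had both group means inside the range of the transcripts of other tissues, the defining markers Pecam1 (4.99 after G-CSF, 5.24 in PBS) and Cdh5 (4.78 after G-CSF, 5.00 in PBS) among them. The other 5 were Ecscr, Ramp2, Stab2, Vwf and Eng. Eng, a TGF-beta co-receptor that stroma also makes, was at 7.76 after G-CSF and 7.83 in PBS. Ramp2, a subunit of the adrenomedullin receptor, was at 6.42 after G-CSF and 7.23 in PBS (change -0.81, adjusted p = 0.104). Stab2 was at 5.19 after G-CSF and 5.77 in PBS, without overlap, and did not pass (change -0.58, adjusted p = 0.135). Vwf was at 5.91 and 5.74 in the same order (change 0.18, adjusted p = 0.895). Pecam1, Cdh5, Eng, Ramp2, Stab2 and Vwf were named after their values were seen. The member that rose was Ecscr, an endothelial cell surface protein (6.74 ± 0.22 after G-CSF, 5.62 ± 0.30 in PBS, adjusted p = 0.00617), and Emcn (endomucin) was next (0.70, adjusted p = 0.0690). The PBS mean of Ecscr and every array of Emcn (3.96 to 5.37) lay within the range of the transcripts of other tissues.

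Several stromal markers of CAR cells also fell. The 16 measured gave 9 calls down, 0 up and 7 not past the test (11 fell and 0 rose at an unadjusted p under 0.05). Over all probe sets the shares were 0.877% falling and 0.743% rising, or 4.81% and 4.41% at an unadjusted p under 0.05. This list was chosen with earlier results of these data known. The count of calls ranged from 4 to 10 over the other settings. Cxcl12 (-0.36, adjusted p = 0.287), Lepr (-0.22, adjusted p = 0.839), Cxcl14 (-0.22, adjusted p = 0.761) and Foxc1 (-0.88, adjusted p = 0.214) did not pass. Pdgfra (0.28), Hp (0.24) and Pdgfrb (0.01) had positive changes and did not pass either. These genes that did not pass were named after their values were seen. The summed intensity of the 16 was 23848 to 25232 after G-CSF and 33720 to 41097 in PBS, without overlap. The 9 were Chrdl1 (-2.56), Il7 (-2.08), Adipoq (-1.69), Lpl (-1.63), Gas6 (-1.63), Angpt1 (-1.25), Vcam1 (-1.07), Kitl (-0.74) and Ebf3 (-0.66). The Kitl call ended on 6 and the Ebf3 call on 5 of the 9 single-array omissions, with adjusted p of at most 0.0793 and 0.0613. Whether the share of such cells in the sort had a part in the falls of Vegfc, Esm1 and Mdk was not tested.

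Lists of other cells that a marrow sort could hold were also set beside these results. For comparison, 0.743% of all probe sets rose and 0.877% fell, or 4.41% and 4.81% at an unadjusted p under 0.05. Neutrophil markers had a median change of 1.06, and all 16 changes were positive. Of the 16, 2 rose (Mmp9 at 1.64 and Csf3r at 0.94) and 0 fell, with 11 rising at an unadjusted p under 0.05. The Mmp9 and the Csf3r call each ended on 6 of the 9 single-array omissions. The neutrophil markers summed to 14253 to 22612 after G-CSF, against 8192 to 9271 in PBS replicates 1, 3 and 4 and 20416 in PBS replicate 2, so only that PBS array overlapped. Smooth muscle and pericyte markers summed to 2778 to 2923 and 2187 to 2561 in the same order, with 2 of 14 risen (Acta2 at 1.57 and Rgs4 at 1.30), or 5 at an unadjusted p under 0.05. The Rgs4 call ended on 5 of the 9 single-array omissions. Every PBS array of Acta2 (4.93 to 5.20) lay within the range of the transcripts of other tissues. Pdgfrb of that list is also a CAR cell marker. Monocyte and macrophage markers summed to 2507 to 3667 after G-CSF and 4066 to 5370 in PBS, with 1 of 14 fallen, Vcam1, which is also a CAR cell marker (3 fell and 0 rose at an unadjusted p under 0.05). Without Vcam1 the groups overlapped, at 1074 to 2151 after G-CSF and 1117 to 2476 in PBS. C1qb was next (-0.77, adjusted p = 0.0538). Osteoblast markers summed to 4006 to 4466 after G-CSF and 5125 to 6594 in PBS, with 1 of 9 risen (Col1a1 at 1.36) and 1 fallen (Phex at -2.07), or 1 and 4 at an unadjusted p under 0.05. Most of that sum was Ibsp (bone sialoprotein), which did not pass (-0.52, adjusted p = 0.150). Without Ibsp the groups overlapped, at 1007 to 1339 after G-CSF and 1175 to 1315 in PBS. Phex averaged 5.44 after G-CSF, within the range of the transcripts of other tissues. The sums without Vcam1 and Ibsp were added after the values were seen. Megakaryocyte and platelet markers gave 0 calls in 8, also at an unadjusted p under 0.05, led by Ppbp (-1.88, adjusted p = 0.714) and Clec1b (-0.37, adjusted p = 0.761). The 17 transcripts of other tissues gave 0 calls, also at an unadjusted p under 0.05. The part of these cells in the values of the 10 genes was not tested.

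For each gene that fell, the 3 genes with the most similar pattern over the 9 arrays were listed by Pearson correlation, as a description in which the points share arrays, normalisation and treatment. The closest to Vegfc were Fam214a (r = 0.98), the orphan receptor gene Gpr50 (0.98) and Thsd4 (0.97), at 0.94, 0.92 and 0.87 after the group means were removed. Gpr50 itself changed by -2.39 (adjusted p = 0.0109). The closest to Esm1 were Cep112, Lrrc58 and the fibrillin gene Fbn2, each at 0.98 (0.94, 0.95 and 0.93 without the group means), and none of these 3 passed the test. The closest to Mdk were Gm4951 (0.98), the alcohol dehydrogenase gene Adh1 (0.97) and Cd74, the invariant chain of MHC class II (0.97), at 0.88, 0.80 and 0.89 without the group means. Adh1 changed by -3.17 (adjusted p = 2.97e-04) and Cd74 by -1.02 (adjusted p = 0.0220), a call that ended on 7 of the 9 single-array omissions and with all probe sets in the fit (0.0814). Fam214a changed by -0.64 (adjusted p = 0.0424), which all 9 omissions ended.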

How the data were processed

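The 9 arrays of sorted CAR cells, 5 from G-CSF mice and 4 from PBS mice, were grouped by sample title. RNA was amplified with PicoSL Ovation and biotin-labelled, per the labels' protocols. Per the submitters' processing notes, the authors made their deposited intensity values with RMA in the Expression Console of Affymetrix. Its version and a genome build are not stated there. These deposited intensity values ran from 1.73 to 15673 with array medians of 34.7 to 37.2, a linear scale, so log2 was taken. RMA equalises arrays, so changes are relative to other transcripts. Precision is limited by how many arrays there are.

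Of 35553 probe sets, 21789 had 1 symbol in the platform annotation and were tested; 1621 with several and 12143 with none were left out. Each of the 10 genes had 1 probe set. For other genes with several, the one with the highest mean was used. Older list symbols were matched through a RefSeq gene table. Limma 3.58.1 (lmFit, eBayes, two-sided, no covariates) in R 4.3.3 compared G-CSF with PBS, with Benjamini-Hochberg adjustment over all tested probe sets. The steps were tested on simulated data. The genes, lists, tests and alternatives, the array set among them, were chosen with earlier results of these data known. Named by rule were the 10 genes, each list gene past the threshold (or the 2 with the smallest p), and the 3 genes most like each gene that fell. Alternatives were other probe set filters, normalisations, array weights, an empirical Bayes trend, replicate and array set blocks, each array set alone, other thresholds, and each array left out. Promoters were RefSeq windows of the 250 bases before a start (GRCm38.p6).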

Additional observations from a re-analysis of the deposited data

Results flagged for a closer look

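In 3 of 74 groups of arrays checked (37 named genes in 2 treatment groups), 1 array lay far from the others of its group, and chance alone flags about 1 in 20 groups. Flt1 was at 4.96 in G-CSF replicate 1, with the other G-CSF arrays at 4.21 to 4.38. The platelet gene Ppbp was at 8.91 in G-CSF replicate 3, with the other G-CSF arrays at 3.85 to 4.44. Col1a1 was at 6.95 in PBS replicate 4, with the other PBS arrays at 6.72 to 6.74.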

How the results depend on the processing

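The 353 called probe sets became 181 with all probe sets in the fit, 598 with the array set as a block, 202 in array set 1 alone, 59 in set 2 alone, 149 at a threshold of 0.01, and 210 to 318 with 1 array left out (210 without PBS replicate 1, 222 without G-CSF replicate 1, 224 without G-CSF replicate 4). Of the 10 genes, 3 fell; the count was 1 with all probe sets in the fit, 1 in array set 1 alone, 1 at the threshold of 0.01 and 1 to 3 with 1 array left out. In array set 2 alone it was 0 in limma, where 5 of the 10 had an unadjusted p under 0.05, 4 of them falling, against 8.94% of all probe sets, with 3.92% falling. With the array set as a block it was 4, Ptn included. Esm1 also missed the threshold after a further quantile normalisation (adjusted p = 0.0893) and with array weights (0.0770). Signs turned for Flt1 in array set 1 alone (0.090), with G-CSF replicates 4 and 5 averaged (0.019) and with 1 array left out (-0.14 to 0.048); for Kdr in set 1 alone (0.055) and with 1 array left out (-0.31 to 0.026); for Clec1b in set 1 alone (0.052); and for Vegfb (0.021) and Vegfd (0.035) in set 2 alone. The cause of these shifts was not tested. Flt1, Kdr, Flt4 and Ptn lay under the median level of all probe sets and dropped out of the fit on brighter probe sets.

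With the replicate number as a block over the shared numbers 1 to 4, which leaves out G-CSF replicate 5, 180 probe sets were called and 3 of the 10 genes fell, with Ptn called (adjusted p = 0.0223), Vegfc not (0.0506) and Flt1 at 0.031. The labels do not say that the numbers pair arrays. Deviations from the group means correlated at 0.28, 0.14, -0.28 and 0.35 for numbers 1 to 4. Among these arrays, only G-CSF replicate 1 correlated best with its own number in the other group. G-CSF replicates 4 and 5 were the closest pair (SD of their log2 differences 0.28, against 0.37 to 0.67 for the others), and averaging them left 3 of the 10 genes falling.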
